A study of Rattus norvegicus with 16 samples.

Results

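The genes described here are 10 genes of the NRF2 antioxidant response: Nfe2l2, which encodes the transcription factor NRF2, Keap1, Hmox1, Nqo1, Gclc, Gclm, Gsr, Txnrd1, Srxn1 and Sod2. They were taken by name, as every array probe whose deposited gene name was one of these symbols, out of 26583 gene names on the array. All 10 genes had a probe, and 9 of them passed the filter on dim signals and were tested. The remaining gene, Gclm, was not well above background on any of the 16 arrays. NRF2 is held in the cytoplasm and marked for degradation by KEAP1, a sensor whose cysteines react with oxidants and electrophiles. When KEAP1 is modified, NRF2 enters the nucleus, pairs with a small MAF protein and binds antioxidant response elements, which raises transcription of enzymes for glutathione, thioredoxin, NADPH, heme and quinone metabolism. In injured brain the pathway is known for its induction in glia and in infiltrating macrophages, where heme oxygenase 1 breaks down heme released from blood.

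Messenger RNA was measured on one-colour Agilent rat arrays in microdissected whole hippocampus of adult male Sprague-Dawley rats. Naive rats (3 arrays) were neither anesthetized nor handled, Sham rats (2 arrays) were anesthetized and prepared for injury without being injured, and TBI rats (3 arrays) received a severe parasagittal fluid-percussion injury, in which a fluid pulse deforms the exposed brain. The 3 drug groups received the same injury and one compound each: JM6 (3 arrays), which inhibits kynurenine 3-monooxygenase, and PMI (3 arrays), both by oral gavage, or E33 (2 arrays), estrogen given subcutaneously according to the labels. The authors' methods state the intraperitoneal route for estradiol instead. No arrays of drug-treated uninjured rats were analysed here. Tissue was taken 24 hours after injury or the equivalent time. The design text describes 3 biological replicates a group, and 2 Sham and 2 E33 arrays were analysed here. Each value below is the log2 of a probe's signal divided by the 75th percentile of the signals above background on its array, so 0 is a signal equal to that percentile. A gene was called changed at a Benjamini-Hochberg adjusted p under 0.05 in limma, with one fit of all 16 arrays and adjustment over all tested probes. The number of arrays limits the precision of each difference.

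Several features of the arrays bear on every comparison. The arrays of the 3 drug groups were scanned in another session than the Naive, Sham and TBI arrays, and between 20256 and 24979 probes were well above background on them against 16274 to 18239 on the others. Session and drug treatment cannot be told apart. The Sham arrays shared a slide with Naive replicates 1 and 2, whereas the TBI arrays shared one with Naive replicate 3. Whole tissue was measured, so a change in the number of cells of one type and a change in RNA per cell cannot be told apart. The neuron markers (5 of 5 on the array), astrocyte markers (6 of 6) and oligodendrocyte markers (4 of 4) were well above background on every array.

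Among the 9 tested genes, Hmox1 was the one called higher after injury, and Keap1 was lower in TBI than in Sham rats. Hmox1, which encodes the inducible heme oxygenase, gave log2 scaled signals of -4.05, -3.38 and -3.88 on the Naive arrays and of -3.71 and -3.24 on the Sham arrays. On the TBI arrays it gave -1.28, 0.13 and -0.92. Every TBI array was thus above every Sham and Naive array, and the Sham and Naive arrays overlapped. Hmox1 was 6.87-fold higher in TBI than in Sham rats (log2 difference 2.78 ± 0.81 SE, 95% interval 1.03 to 4.54, adjusted p = 0.049). It was 8.46-fold higher than in Naive rats (log2 difference 3.08 ± 0.72, adjusted p = 0.0322). Between Sham and Naive rats the difference was 0.30 ± 0.81 (adjusted p = 0.878). The size of the rise was steadier than its call: over 18 alternative settings for TBI against Sham the log2 difference lay between 2.36 and 3.08, while the adjusted p lay between 0.0226 and 0.514 and stayed under the threshold in 7 of them. Leaving out Sham replicate 1 gave an adjusted p of 0.203, Sham replicate 2 one of 0.144, TBI replicate 2 one of 0.152 and TBI replicate 3 one of 0.11. Against Naive rats the difference lay between 2.5 and 3.38 over 19 alternatives, 9 of which kept the call, and it was 3.19 within the slide that held Naive replicate 3 and the TBI arrays. Leaving out any one array ended that call (adjusted p of 0.0571 to 0.115), except for TBI replicate 1 (0.0269).

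**Figure D1:**
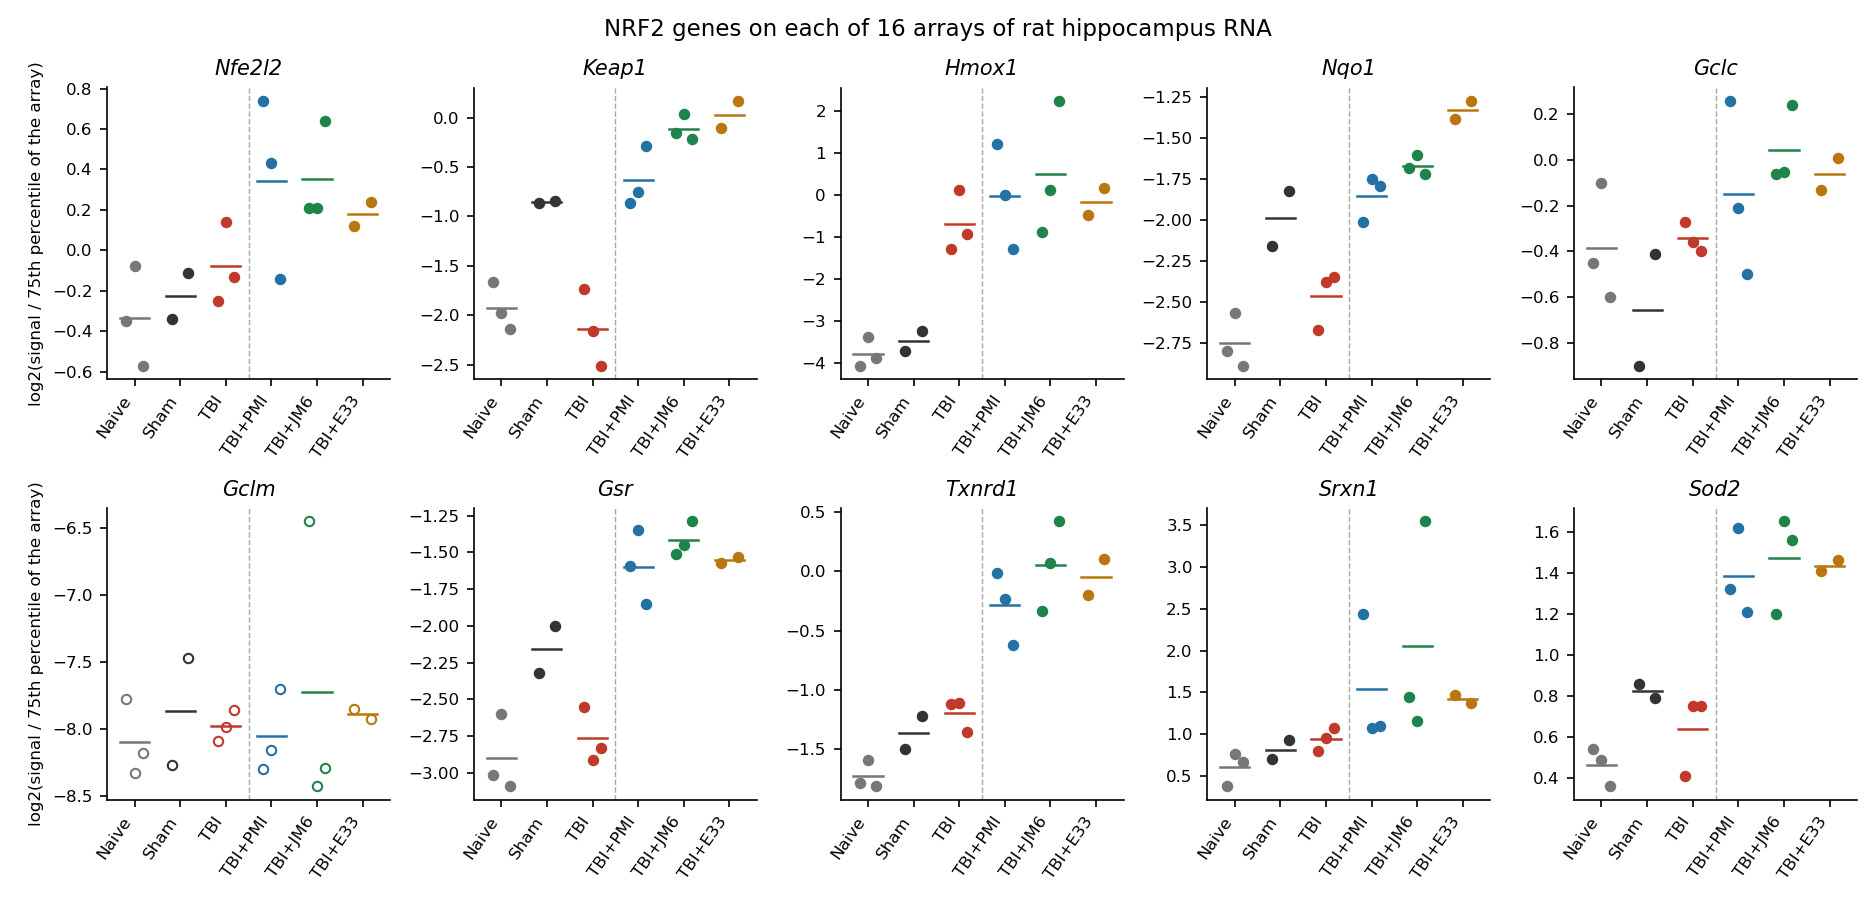
Log2 scaled signal (signal divided by the 75th percentile of the array, vertical axis) of the 10 NRF2 genes on each array by group. Points are arrays, lines are group means, open points mark signals not well above background, and the dashed line separates the 2 scan sessions. Hmox1 lies between -4.05 and -3.24 on the Naive and Sham arrays and between -1.28 and 0.13 on the TBI arrays, and all Gclm points are open.

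Markers of immune cells moved in the same comparison. The summed scaled signal of 6 blood leukocyte markers was 0.122 to 0.143 in Naive, 0.312 to 0.448 in Sham and 0.67 to 3.26 in TBI rats, and 3 of 5 tested markers were called higher in TBI than in Sham rats. In Naive rats 2 of the 6 markers were well above background, and in TBI rats 4 to 5. The neutrophil and monocyte gene S100a8 was well above background on 0 of 3 Naive arrays, 1 of 2 Sham arrays and 3 of 3 TBI arrays. The TBI array with the highest Hmox1 signal (replicate 2, 0.13) had the highest leukocyte sum (3.26), and the one with the lowest Hmox1 signal (replicate 1, -1.28) had the lowest sum (0.67). S100a8, S100a9, Ptprc and Itgal of that list ranked the TBI arrays as Hmox1 did, but Cd3e ran the other way. Cd3e gave -1.98, -5.6 and -2.69 on TBI replicates 1, 2 and 3, beside -2.76 and -2.33 on the Sham arrays. The drug arrays did not show the order of the leukocyte sum: PMI replicate 1, second highest in Hmox1 among them (1.22), had their lowest leukocyte sum (1.62). JM6 replicate 2 had no usable S100a8 value, so its sum (2.76) lacks that marker. Among the other drug arrays E33 replicate 2 had the highest sum (3.49), with Hmox1 at 0.16. The summed signal of 7 microglia and macrophage markers was 8.13 to 8.96 in Naive, 6.97 to 13.1 in Sham and 12.3 to 20.2 in TBI rats. Against Sham rats 3 of these 7 were called higher, among them Cd68, a lysosomal protein of phagocytes (log2 difference 2.68), and P2ry12, a receptor of resting microglia, was called lower (-1.41). On TBI replicates 1, 2 and 3 the microglia sums were 12.3, 20.2 and 19.8, the order of Hmox1 as well. Neuron sums (19.3, 13.7 and 12.4), oligodendrocyte sums (99.6, 68.5 and 49.2) and astrocyte sums (48.3, 44.5 and 44.1) were highest on replicate 1. The order over 3 arrays therefore does not single out leukocytes. The part of any of these cells in the Hmox1 signal was not tested.

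**Figure D2:**
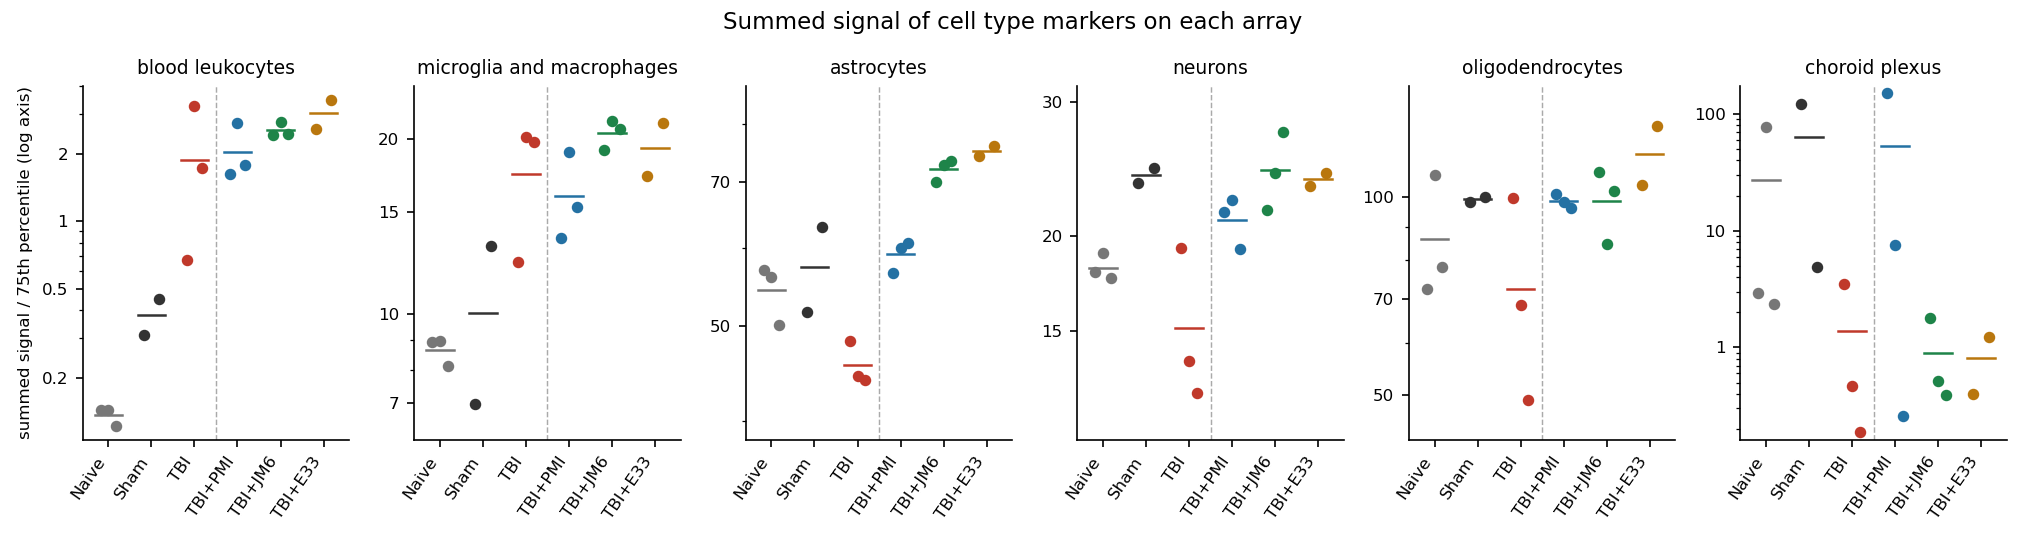
Summed signal of cell type markers, each divided by the 75th percentile of its array (vertical log axes), on every array by group. Points are arrays, lines are group means and the dashed line separates the 2 scan sessions. The blood leukocyte sum of JM6 replicate 2 lacks S100a8, which had no usable value there. The blood leukocyte sum is 0.122 to 0.143 on the Naive arrays and 0.67 to 3.26 on the TBI arrays, and the choroid plexus sum ranges from 0.187 to 151.

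Of the regulators in the set, Keap1 was called against Sham and Nfe2l2 was not. Keap1, the inhibitor, gave -1.66, -1.98 and -2.14 on the Naive arrays, -0.86 and -0.84 on the Sham arrays and -1.74, -2.16 and -2.51 on the TBI arrays. Both Sham arrays were above every Naive and TBI array, and Naive and TBI arrays overlapped. Keap1 was 2.44-fold lower in TBI than in Sham rats (log2 difference -1.29 ± 0.25, adjusted p = 0.0121) and 2.11-fold higher in Sham than in Naive rats (1.08 ± 0.25, adjusted p = 0.0206). Between TBI and Naive rats the difference was -0.21 ± 0.22 (adjusted p = 0.654). The Sham arrays lay on another slide than the TBI arrays, and leaving out Sham replicate 1 or 2 gave adjusted p of 0.0636 and 0.0598. With slide as a fixed block the difference between TBI and Sham was -0.96 (adjusted p = 0.80), while over 18 alternatives it stayed negative, from -1.49 to -0.72, with 12 keeping the call. Nfe2l2, the NRF2 gene itself, ranged from -0.57 to -0.08 in Naive, from -0.34 to -0.11 in Sham and from -0.25 to 0.14 in TBI rats. The 3 groups overlapped, and the TBI differences were 0.15 ± 0.26 against Sham (adjusted p = 0.751) and 0.26 ± 0.23 against Naive rats (adjusted p = 0.577). The activity of NRF2 is set largely by the stability and location of the protein, which the arrays did not measure.

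Over the 9 tested genes, 2 were called in TBI against Sham (Hmox1 higher, Keap1 lower), where 9.38% of all tested probes were called. In TBI against Naive rats 1 of 9 was called, beside 4.71% of all probes. In Sham against Naive rats 3 of 9 were called, all higher in Sham, beside 8.07% of all probes. The median log2 difference of the 9 genes was 0.13, 0.26 and 0.36 in these comparisons, beside -0.03, 0.04 and 0.06 for all probes.

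**Figure D3:**
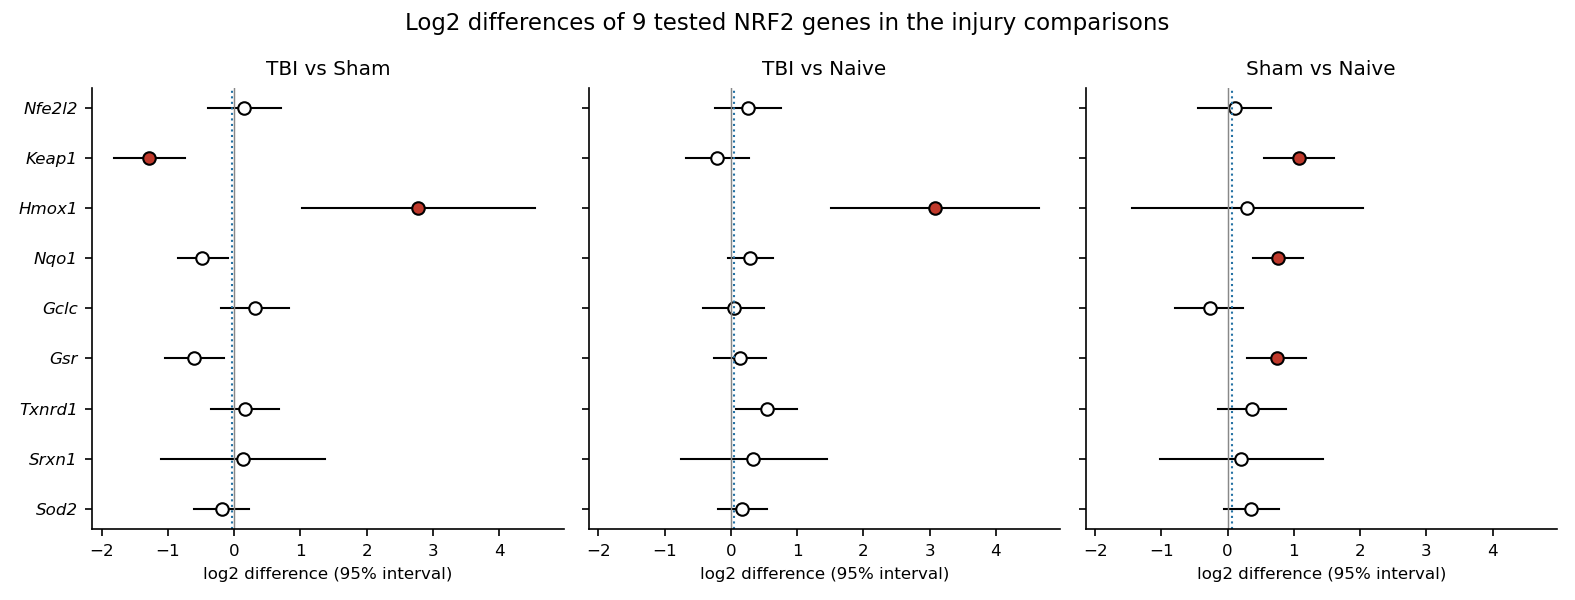
Log2 differences of the 9 tested genes (horizontal axis, with 95% intervals from limma) in TBI against Sham, TBI against Naive and Sham against Naive rats. Filled points were called at an adjusted p under 0.05, and the dotted line is the median of all tested probes. Hmox1 stands at 2.78 and 3.08 in the TBI comparisons, and Keap1 at -1.29 against Sham.

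No enzyme of the set other than Hmox1 was called in either TBI comparison. Nqo1 encodes NAD(P)H quinone dehydrogenase, which reduces quinones without forming radicals, and Gsr encodes glutathione reductase, which returns oxidized glutathione to its reduced form. Nqo1 gave -2.80, -2.57 and -2.89 on the Naive arrays, -2.16 and -1.82 on the Sham arrays and -2.67, -2.38 and -2.35 on the TBI arrays. Gsr gave -3.01, -2.60 and -3.09 on the Naive arrays, -2.32 and -2.0 on the Sham arrays and -2.55, -2.91 and -2.83 on the TBI arrays. For both genes the Sham arrays were the highest of the 3 groups, as for Keap1. Nqo1 was 1.70-fold higher in Sham than in Naive rats (0.76 ± 0.17, adjusted p = 0.0207), and Gsr was 1.67-fold higher (0.74 ± 0.21, adjusted p = 0.0446). In TBI against Sham rats the differences were -0.48 ± 0.17 for Nqo1 (adjusted p = 0.104) and -0.60 ± 0.21 for Gsr (adjusted p = 0.0832). The 3 Sham calls were lost under quantile normalization, with adjusted p of 0.0709 for Keap1, 0.0853 for Nqo1 and 0.0584 for Gsr, and within the slide that held both groups the differences were 0.97, 0.70 and 0.64.

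Thioredoxin reductase 1 (Txnrd1), which keeps thioredoxin reduced, gave -1.78, -1.59 and -1.81 on the Naive arrays, -1.5 and -1.22 on the Sham arrays and -1.12, -1.11 and -1.35 on the TBI arrays. Every TBI array was above every Naive array and the TBI and Sham arrays overlapped, but the difference of 0.54 ± 0.21 from Naive rats missed the threshold (adjusted p = 0.169). A second Txnrd1 probe, with a lower signal, gave -0.10 ± 0.32 in the same comparison (adjusted p = 0.91), so the 2 probes differed in sign. Srxn1, which encodes sulfiredoxin, the enzyme that repairs overoxidized peroxiredoxins, ranged from 0.38 to 0.77 in Naive, from 0.70 to 0.93 in Sham and from 0.80 to 1.08 in TBI rats. Its TBI differences were 0.13 ± 0.57 against Sham (adjusted p = 0.907) and 0.34 ± 0.51 against Naive rats (adjusted p = 0.773). Gclc, the catalytic subunit of the enzyme that makes the first step of glutathione synthesis, ranged from -0.60 to -0.10 in Naive, from -0.90 to -0.41 in Sham and from -0.40 to -0.27 in TBI rats, with a difference of 0.31 ± 0.24 from Sham (adjusted p = 0.437). Sod2, the mitochondrial superoxide dismutase, ranged from 0.36 to 0.54 in Naive, from 0.79 to 0.86 in Sham and from 0.41 to 0.75 in TBI rats. The TBI arrays were below the Sham arrays for Sod2 and overlapped the Naive arrays, and the difference from Sham was -0.19 ± 0.19 (adjusted p = 0.56). The modifier subunit of the same glutathione enzyme, Gclm, has a single probe on the array with 9 of its 60 bases G or C, and 0.0263% of all probes have as few or fewer. No level of Gclm can be given from these arrays.

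The promoter of a gene is one place where NRF2 can act, and the sequences just before the annotated start are shown for Nqo1 and Txnrd1. The rule considered Hmox1, Nqo1, Srxn1, Gclc, Gclm and Txnrd1 and took those called in the most comparisons, and of those with an entry in the promoter table used only Nqo1 (4 comparisons) and Txnrd1 (3 comparisons, all with drug arrays) were called. Sod2, which the rule did not consider, was also called in 3. The table gives windows of 300 bases, from 250 before to 50 after an annotated start, from RefSeq on rat build GRCr8, and 8 of the 10 genes matched it. Hmox1 and Gsr have no entry in it. The core of the antioxidant response element was searched as TGACNNNGC on both strands and occurred in 12.1% of the 33469 promoter windows. Among the windows of the 8 genes it occurred in those of Gclm, Nfe2l2 and Sod2 and in 1 of 2 of Txnrd1. The AP-1 site TGANTCA, which overlaps many such elements, occurred in 7.33% of all windows and 2 times in that of Srxn1, starting 62 and 5 bases before the annotated start. In Txnrd1 the core starts 78 bases before the second annotated start and reads, on the strand shown, as the reverse complement. The 250 bases before each start are given 5′ to 3′, all on the minus strand of the build, with the core in capitals:
Nqo1, chr19:52220268-52220517: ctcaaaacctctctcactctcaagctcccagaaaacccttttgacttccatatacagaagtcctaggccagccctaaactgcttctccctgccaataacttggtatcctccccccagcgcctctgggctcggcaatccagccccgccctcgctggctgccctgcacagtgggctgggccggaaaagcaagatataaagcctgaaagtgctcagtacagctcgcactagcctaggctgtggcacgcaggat
Txnrd1, first start, chr7:22764852-22765101: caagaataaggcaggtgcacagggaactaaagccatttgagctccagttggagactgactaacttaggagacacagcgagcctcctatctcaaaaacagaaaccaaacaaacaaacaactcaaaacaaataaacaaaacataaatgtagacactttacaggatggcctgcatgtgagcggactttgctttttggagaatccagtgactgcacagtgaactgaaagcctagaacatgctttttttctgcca
Txnrd1, second start, chr7:22755905-22756154: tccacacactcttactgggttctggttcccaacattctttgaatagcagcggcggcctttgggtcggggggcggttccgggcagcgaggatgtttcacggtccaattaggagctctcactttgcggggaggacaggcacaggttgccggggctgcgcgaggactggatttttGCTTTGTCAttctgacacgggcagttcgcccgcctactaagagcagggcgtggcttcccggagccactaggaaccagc
A match describes letters only, and its absence from a window says nothing of elements elsewhere. The array probes lie elsewhere in these genes. On rat build rn4, which the array files use, the Hmox1 probe is at chr19:13969336-13969395, the Keap1 probe at chr8:20260496-20260555 and the Nqo1 probe at chr19:37251727-37251786.

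The wider pathway was described through 65 further genes listed by role, of which 62 were on the array and 60 were tested. In TBI against Sham rats 5 of 59 were called, 2 higher and 3 lower, beside 9.38% of all probes, a like share, and the list's median difference was -0.03, equal to that of all probes. In TBI against Naive rats 5 of 60 were called, all higher, beside 4.71% of all probes, with a median of -0.03 beside 0.04 for all probes. Maff, a small MAF protein that partners NRF2, was not well above background on any of the 3 Naive and 2 Sham arrays and was above it on 3 of 3 TBI arrays, at -5.64, -4.18 and -5.39. It was called higher in TBI than in Sham rats (limma, adjusted p = 0.0353) and than in Naive rats (adjusted p = 0.00976). Those p-values belong to fitted differences that use signals not well above background. As a lower limit, Maff was at least 2.37-fold higher than in Sham and 1.97-fold higher than in Naive rats. The limit takes the lowest signal above background on each array, or the probe's own where higher, and has no p-value. The other 6 tested regulators, among them its relatives Mafg and Mafk, were not called in these comparisons.

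Ugt1a6, which conjugates phenols to glucuronic acid, gave -2.26, -2.15 and -2.17 on the Naive arrays, -1.95 and -2.11 on the Sham arrays and -1.44, -0.44 and -0.73 on the TBI arrays. It was the one gene besides Maff called in both comparisons, with differences of 1.16 ± 0.29 from Sham (adjusted p = 0.0309) and 1.32 ± 0.26 from Naive rats (adjusted p = 0.0181). The genes of this family share exons, so its probe may read several of them. Mgst1 and Mgst2, microsomal glutathione transferases, were higher than in Naive rats by 1.51 and 2.18 on the log2 scale (adjusted p = 0.036 and 0.0196). Abcc3, an efflux pump of glutathione and glucuronide conjugates, was also higher than in Naive rats, by 2.04 (adjusted p = 0.0256), and was above background on 2 of 3 Naive arrays. The call of Abcc3 was lost under quantile normalization (adjusted p = 0.0906), and so was that of Maff against Sham (0.0574).

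Another 3 genes of the list were lower in TBI than in Sham rats. Prdx6, a peroxiredoxin that repairs oxidized phospholipids, gave 3.19 and 3.06 on the Sham arrays and 2.26, 2.09 and 1.99 on the TBI arrays, a difference of -1.01 ± 0.20 (adjusted p = 0.0136). Ephx1, microsomal epoxide hydrolase, differed by -1.36 ± 0.37 (adjusted p = 0.0375). Gpx3, a secreted glutathione peroxidase, differed by -1.13 ± 0.28 (adjusted p = 0.0277). Against Naive rats none of these was called. In TBI against Sham rats 2 of 4 oligodendrocyte markers were called lower, and 0 of 4 were called against Naive rats. The summed neuron markers were 17.6 to 19 in Naive, 23.5 to 24.6 in Sham and 12.4 to 19.3 in TBI rats. The summed choroid plexus markers were 2.34 to 76.6 in Naive, 4.88 to 122 in Sham and 0.187 to 3.51 in TBI rats. The part of these cells in the differences was not tested. No gene was called among the lists for heme and iron handling, glutathione synthesis and NADPH supply in either comparison (7, 4 and 4 to 5 tested genes, limma), and 17 genes of the whole list had an unadjusted p under 0.05 against Sham and 13 against Naive rats. In Sham against Naive rats 0 of 59 genes were called by limma, with 14 at an unadjusted p under 0.05 and 1 called lower under quantile normalization.

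**Figure D4:**
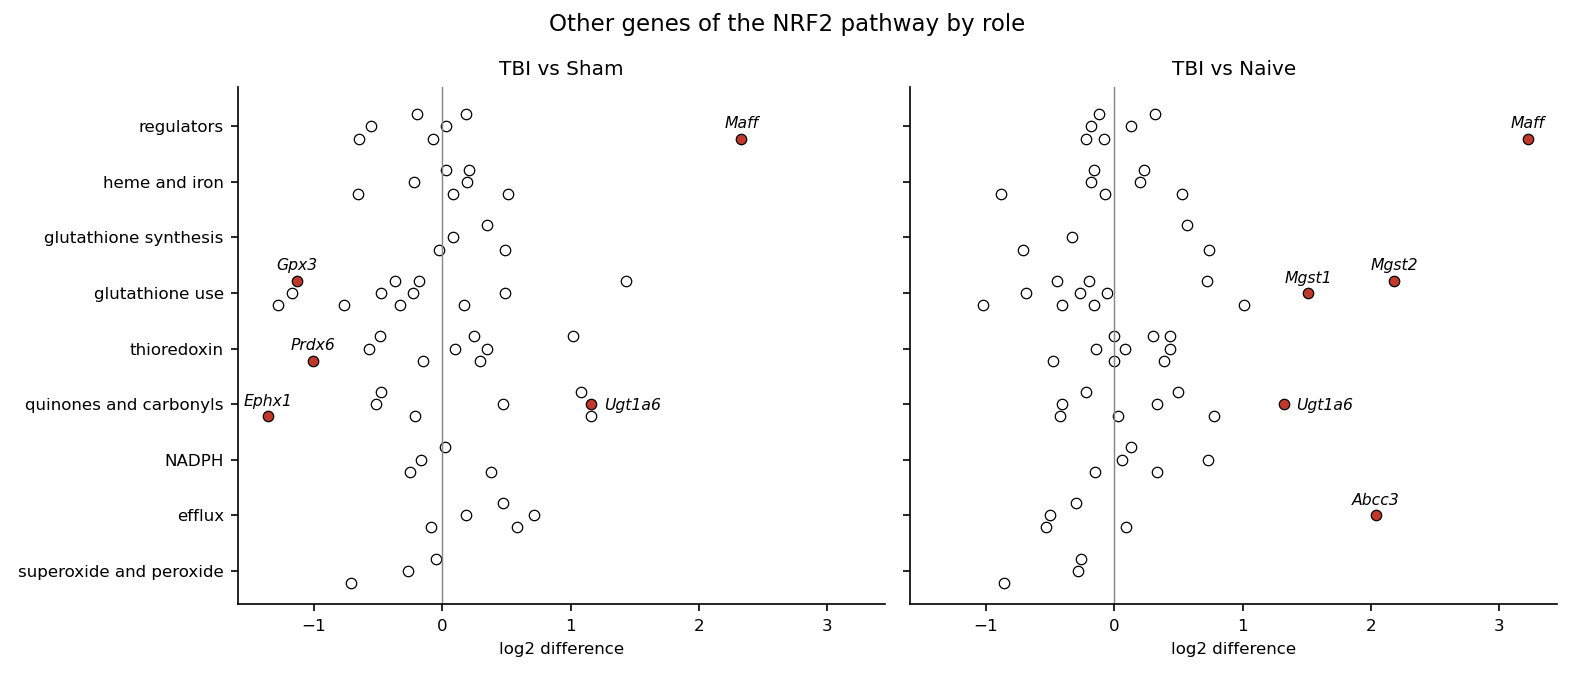
Log2 differences (horizontal axis) of the other tested genes of the NRF2 pathway by role in TBI against Sham and TBI against Naive rats. Each point is a gene, and filled, named points were called at an adjusted p under 0.05. The values of Maff (2.33 and 3.22) are fitted differences from groups not well above background. In TBI against Sham 2 genes were called higher and 3 lower, and in TBI against Naive 5 higher.

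The drug groups were compared with TBI rats across scan sessions, and under the scaling described above most probes differed. With JM6, 70.1% of all tested probes were called, with PMI 56.7% and with E33 70.3%, nearly all higher. The median probe was higher by 0.99, 0.79 and 1.08 on the log2 scale. That scaling divides by a percentile of signals above background, and more probes were above background in the drug session. Letting dim probes count towards the percentile as well gave medians of 0.21, 0.14 and 0.25. Called probes then numbered 9986, 8162 and 9218, against 15998, 12945 and 16047. The size of the median shift thus depended on the scaling. Under quantile normalization, which forces the arrays to one distribution, 27.2%, 19.2% and 20.4% were called and the median was near 0. In each drug group 5 of 9 NRF2 genes were called higher (Keap1, Gsr, Txnrd1, Nqo1 and Sod2), with medians over the 9 genes of 1.10, 0.67 and 0.80. Under quantile normalization 3 remained with JM6 (Gsr, Txnrd1 and Keap1), 2 with PMI (Gsr and Keap1) and 1 with E33 (Keap1), and none was called lower. These counts take the brightest probe of a gene, and a second Txnrd1 probe kept its call with E33.

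Keap1 gave -0.16, 0.04 and -0.22 on the JM6 arrays, -0.87, -0.75 and -0.29 on the PMI arrays and -0.11 and 0.17 on the E33 arrays. All 8 were above all 3 TBI arrays. The differences from TBI were 2.02 ± 0.22 with JM6, 1.5 ± 0.22 with PMI and 2.17 ± 0.25 with E33 (adjusted p = 1.3e-05, 0.000164 and 2.1e-05). They exceeded the median of all probes by 1.03, 0.71 and 1.09, and under quantile normalization they were 1.22, 0.83 and 1.35 (adjusted p = 0.00479, 0.0346 and 0.0069). Keap1 was the one gene of the set called higher in all 3 drug comparisons under every alternative with an adjusted p (18, 18 and 17 of them). All of these differences were measured across scan sessions.

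The other 4 called genes were Gsr, Txnrd1, Nqo1 and Sod2. Gsr ranged from -1.85 to -1.29 over the drug arrays and from -2.91 to -2.55 over the TBI arrays, with differences of 1.35, 1.17 and 1.21 for JM6, PMI and E33 that fell to 0.43, 0.40 and 0.22 under quantile normalization. The brighter Txnrd1 probe differed by 1.25, 0.90 and 1.14, and by 0.52, 0.30 and 0.38 under quantile normalization. The dimmer Txnrd1 probe, at -4.80, -5.06 and -5.18 on the TBI arrays, differed by 2.54, 2.02 and 2.45, and by 1.26, 0.86 and 1.02 under quantile normalization (adjusted p = 0.01, 0.0615 and 0.0482). The dimmer probe thus exceeded the median of all probes by more than Keap1 did and kept its call under quantile normalization with JM6 and E33, whereas the brighter one kept it with JM6. Nqo1 differed by 0.80, 0.62 and 1.14 in the main scaling, but its sign turned under quantile normalization with JM6 (-0.12) and PMI (-0.15). Sod2 differed by 0.83, 0.75 and 0.80, less than the median probe in each case, and its sign turned after removal of the trend with probe base composition (-0.10, -0.03 and -0.20).

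Gclc and Nfe2l2 were not called, and they lagged behind the median probe. Gclc differed from TBI by 0.39, 0.19 and 0.28 with JM6, PMI and E33, which is 0.60, 0.59 and 0.79 below the median of all probes, and the difference was negative under quantile normalization (-0.31, -0.36 and -0.45). Nfe2l2 differed by 0.43, 0.42 and 0.26, and by -0.25, -0.09 and -0.45 under quantile normalization. The direction of both genes therefore depended on the scaling.

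**Figure D5:**
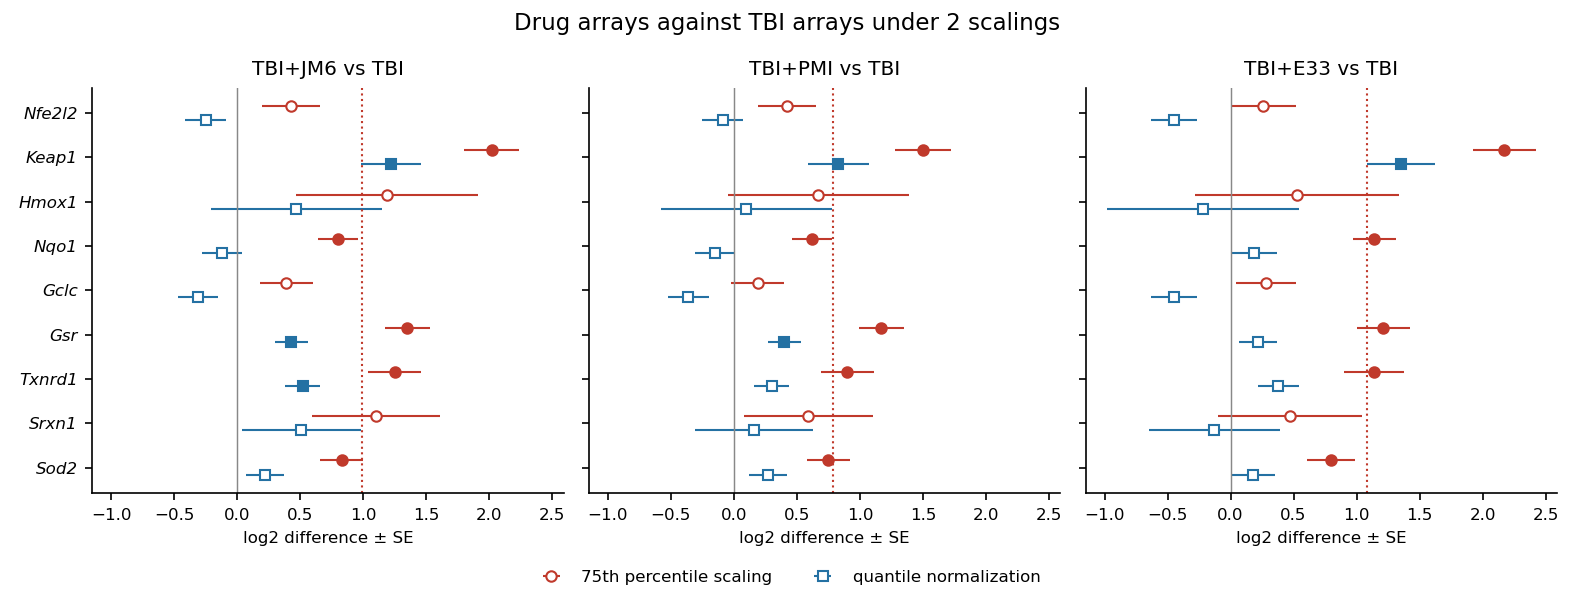
Log2 differences ± SE (horizontal axis) of the 9 tested genes in each drug group against TBI, under the 75th percentile scaling (circles) and quantile normalization (squares). Filled symbols were called at an adjusted p under 0.05, and the dotted line is the median of all probes under the 75th percentile scaling. Keap1 is filled under both scalings in the 3 comparisons, whereas Nqo1 and Sod2 are filled under one.

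Hmox1 and Srxn1 varied most among the drug arrays. Hmox1 gave -0.87, 0.13 and 2.24 with JM6, 1.22, 0.01 and -1.29 with PMI and -0.48 and 0.16 with E33. Srxn1 gave 1.45, 1.16 and 3.54 with JM6, 2.44, 1.08 and 1.10 with PMI and 1.47 and 1.37 with E33. The same 2 arrays, JM6 replicate 3 and PMI replicate 1, were the highest of the 8 drug arrays for both genes under both scalings. They were also the 2 highest for Nfe2l2 (0.64 and 0.74) and Gclc (0.24 and 0.26) in the main scaling, and for the remaining 5 genes they were not the highest pair. The choroid plexus markers, which show tissue taken along with the hippocampus, summed to 151 on PMI replicate 1 and to 0.394 on JM6 replicate 3, beside 0.257 to 7.53 on the other drug arrays. The summed signal of 4 red blood cell markers was 83.9 on PMI replicate 1 and 37.2 on JM6 replicate 3. On the other drug arrays it was 31.4 to 57.7. The part of such tissue or of blood in the Hmox1 and Srxn1 signals was not tested.

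The Hmox1 rise seen in TBI rats was present in the drug groups as well, in that all 8 drug arrays were above all Sham and Naive arrays, across sessions. Against TBI rats Hmox1 differed by 1.19 ± 0.72 with JM6 (adjusted p = 0.154), by 0.67 ± 0.72 with PMI (adjusted p = 0.435) and by 0.53 ± 0.81 with E33 (adjusted p = 0.554). The JM6 difference was 0.32 without JM6 replicate 3 and 1.87 without JM6 replicate 1, where it was called (adjusted p = 0.0352). For Srxn1 the JM6 difference was 1.10 ± 0.51 (adjusted p = 0.069). It was 0.36 without JM6 replicate 3, and it was called without JM6 replicate 1 (1.40, adjusted p = 0.0426) or 2 (1.55, adjusted p = 0.0214). The leukocyte marker sum was 1.62 to 3.49 on the drug arrays, where that of JM6 replicate 2 lacks S100a8, beside 0.67 to 3.26 on the TBI arrays. Sums of astrocyte markers (56.5 to 76.1 beside 44.1 to 48.3) and endothelial markers (2.16 to 3.81 beside 1.1 to 1.65) did not overlap, across sessions. Those of the other marker lists overlapped. The part of these cells in the drug differences was not tested.

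The 3 compounds were then compared with each other within one scan session, where 0.0131% of all probes were called for JM6 against PMI, 0.0175% for JM6 against E33 and 0.11% for PMI against E33. None of the 9 NRF2 genes was called by limma in any of the 3 comparisons, and 1, 0 and 2 had an unadjusted p under 0.05. The 3 PMI arrays shared a slide with 1 JM6 array, and the 2 E33 arrays shared another with 2 JM6 arrays. No slide held both PMI and E33 arrays. With slide as a fixed block and this session alone in limma, 0, 0 and 0 genes had an unadjusted p under 0.05. In the fit without slide the closest were Keap1 and Nqo1. Keap1 was lower with PMI than with E33 by 0.67 on the log2 scale with a 95% interval of -1.20 to -0.14 (adjusted p = 0.229), and the JM6 against PMI interval was 0.05 to 1.0 (adjusted p = 0.518). Nqo1 differed by -0.52 between PMI and E33 (interval -0.90 to -0.15, adjusted p = 0.194), and every PMI array was below both E33 arrays. For Hmox1 the intervals were wide, from -1.05 to 2.09 for JM6 against PMI, from -1.09 to 2.41 for JM6 against E33 and from -1.62 to 1.89 for PMI against E33. Log2 differences of 1 in either direction thus lay within all 3 intervals at this number of arrays.

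In the wider pathway 26 of 60 genes were called higher with JM6, 20 with PMI and 27 with E33, where 1 was called lower, beside 70.1%, 56.7% and 70.3% of all probes, and the list's medians of 0.45, 0.42 and 0.50 lay below those of all probes. Under quantile normalization the split turned, with 2 higher and 10 lower for JM6, 1 and 3 for PMI and 2 and 7 for E33, beside 27.2%, 19.2% and 20.4% of all probes. Under both scalings a smaller share of the list than of all probes was called. Few genes were called in the same direction under both scalings. Akr1b8, an aldo-keto reductase that detoxifies aldehydes, gave -5.13, -4.19 and -4.88 on the TBI arrays, -3.03, -2.25 and -1.66 with JM6 and -1.95, -2.63 and -3.06 with PMI. It was higher by 2.42 ± 0.38 with JM6 and 2.19 ± 0.38 with PMI (adjusted p = 0.000153 and 0.000484), and by 1.17 and 1.10 under quantile normalization. With E33 it was called under the main scaling (1.98) but not under quantile normalization (0.51, adjusted p = 0.34). Mafg, a small MAF partner of NRF2, was higher by 1.47 ± 0.18 with JM6 and 1.48 ± 0.21 with E33, and by 0.64 and 0.62 under quantile normalization. Gpx3 was higher with E33 by 2.15 ± 0.28, and by 0.82 under quantile normalization. Nqo2, a quinone reductase that uses dihydronicotinamide riboside, was the gene called lower with E33. It gave -2.75 and -2.88 on the E33 arrays and -1.38, -0.92 and -1.19 on the TBI arrays, a difference of -1.65 ± 0.38 (adjusted p = 0.00218), and -2.81 under quantile normalization. With JM6 the Nqo2 difference was -0.32 ± 0.34 (adjusted p = 0.404) and with PMI -0.04 ± 0.34 (adjusted p = 0.921). Between the drug groups 0 of 60 pathway genes were called by limma under either scaling, with 1, 1 and 3 at an unadjusted p under 0.05.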

How the data were processed

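Hippocampal RNA of 16 rats was amplified, labelled and hybridised to one-colour Agilent rat arrays. The authors deposited Agilent Feature Extraction files, whose intensity columns (processed signal, mean signal and background) and flag scores were used here, and a table of ratio values scaled by the authors, used as an alternative. Their methods scaled each array to the 75th percentile of probes above background and kept a probe if every array of some group was above background. The same was done here from the processed signal. Non-control spots (42877) without outlier flags were averaged per probe (30367 probes), 22821 probes were tested, and the brightest tested probe stood for a gene. R 4.3.3 and limma 3.58.1 fitted all groups together with 10 residual degrees of freedom. The fit was tested on simulated data. Samples were grouped by their labels, and replicates are separate rats by the design text. Correlations between arrays ranged from 0.917 to 0.987. The members and lists were chosen with earlier results of these data known. All 10 genes were named. Other pathway genes were named where called in TBI against Sham or Naive, and in drug comparisons up to 3 rises and 3 falls called alike under both scalings. Which of the 2 amplification kits in the labels was used for which array is not given in the sources used here.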

Additional observations from a re-analysis of the deposited data

How the results depend on the processing

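No result changed direction among the called injury differences. Numbers of NRF2 genes called are given in the order TBI against Sham, TBI against Naive and Sham against Naive (2, 1 and 3 as reported) and JM6, PMI and E33 against TBI (5 each). With normexp background correction they were 0, 0 and 0 (2, 1 and 1 at an unadjusted p under 0.05), then 4, 1 and 1, and over all probes 4, 40 and 14 were called in the injury comparisons. They were 0, 0 and 0 with limma on the compared groups alone (3, 2 and 3 unadjusted), with slide as a fixed block (1, 1 and 3 unadjusted) and with the methods' t-test after Benjamini-Hochberg adjustment. That t-test without adjustment gave 3, 2 and 4, and 0, 1 and 1 among the drug pairs. Quantile normalization and the authors' table each gave 2, 1 and 0, then 3, 2 and 1. The percentile over all probes gave 3, 1 and 3, then 3, 3 and 3, of which 3, 2 and 1 were among the 5 reported. No filter on dim probes gave 1, 0 and 2. The mean over a gene's probes gave 1 for TBI against Sham, and slide as a random block (estimated correlation -0.0878) gave 4. Removing the trend with probe base composition, chosen after seeing the data, gave 2, 1 and 1, then 3, 2 and 3, of which 1 in each drug comparison (Keap1) was among the 5 reported. With single arrays left out the counts ranged from 0 to 3, from 0 to 1 and from 0 to 3 in the injury comparisons, from 5 to 7, 5 to 6 and 5 to 5 against TBI, and 0 between drugs.

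The replicate number as a block gave 1, 1 and 2, as Hmox1 lost its call against Sham (adjusted p = 0.0811), and over all probes 1542, 1326 and 1297 against 2138, 1075 and 1838. Same-numbered arrays of different groups had a mean correlation of deviations of 0.016, from -0.185 to 0.183, so the numbers only name the samples.

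Differences from TBI that were called in the reported fit or under the alternative changed sign as follows. Among these sign changes, Gclc and Nfe2l2 were called only under the alternative, as lower. Under alternatives that kept the sign, Gclc was also called higher with JM6. Nfe2l2 was called higher with PMI in limma without PMI replicate 3 (0.66, adjusted p = 0.0196). Quantile normalization turned Nqo1 with JM6 (-0.12) and PMI (-0.15), and the authors' table did so too (-0.11 and -0.13). The percentile over all probes turned Nqo1 (-0.03) and Gclc (-0.45) with PMI and Gclc (-0.55), Nfe2l2 (-0.57) and Sod2 (-0.03) with E33. The composition trend turned Nqo1 (-0.20), Gclc (-0.54), Nfe2l2 (-0.56) and Sod2 (-0.10) with JM6, Nqo1 (-0.19), Gclc (-0.58) and Sod2 (-0.03) with PMI, and Gclc (-0.72), Nfe2l2 (-0.79) and Sod2 (-0.20) with E33. The cause was not tested. Of 1548 values of single genes under alternatives, 1420 kept their sign and 109 changed it with no call on either side.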
